A study of Sus scrofa with 6 samples.

Results

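Lactate and pyruvate handling was followed through 8 genes: LDHA and LDHB of lactate dehydrogenase, PDHA1, PDHB and DLAT of pyruvate dehydrogenase, MPC1 and MPC2 of the mitochondrial pyruvate carrier, and the monocarboxylate transporter SLC16A1. They were taken by symbol from the 19300 genes listed in at least 1 oocyte. The symbol LDHB belonged to 2 gene IDs, so the 8 genes covered 9 IDs, and the LDHB value is their sum. All 8 averaged at least 1 FPKM over the 6 oocytes (fragments scaled to transcript length and to the mapped fragments of the library), a level reached by 11493 genes in all. The set was selected on FPKM differences between the classes in these same oocytes, that of LDHA among them, so class differences are given as descriptions.

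Each library was 1 pig oocyte at the germinal vesicle stage, the arrest before meiosis resumes, and 3 BCB-negative oocytes were compared with 3 BCB-positive oocytes. Brilliant cresyl blue (BCB) is decolourised by oocytes with high glucose-6-phosphate dehydrogenase activity. Oocytes that lose the dye are usually taken as still growing, and those that stay blue as having finished growth. All 6 came from antral follicles of 3 to 6 mm, were freed of cumulus cells and zona pellucida, and had no maturation culture. No animal or culture was named for any oocyte, so each class was treated as 1 sample of 3 cells and no test between classes was made.

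Oocytes use pyruvate rather than glucose as their main fuel, and receive much of it from the cumulus cells around them. Lactate dehydrogenase interconverts lactate and pyruvate as a tetramer, with LDHA giving the muscle-type subunit and LDHB the heart-type subunit. MPC1 and MPC2 pair in the inner mitochondrial membrane to carry pyruvate into the matrix. There the pyruvate dehydrogenase complex turns it into acetyl-CoA, using the E1 subunits PDHA1 and PDHB and the E2 acetyltransferase DLAT. SLC16A1 (MCT1) moves lactate and pyruvate across the plasma membrane together with a proton.

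Expected counts summed to between 7122749 and 9238987 in an oocyte, with the highest sum in BCB-positive oocyte 3. That library also stood apart in its transcriptome. Its mean Pearson correlation of log2(FPKM + 1) with the other oocytes, across genes, was 0.874, against 0.905 to 0.915 for the rest. All 12 oocyte markers were listed, and ZP3 and ZP4 of the zona pellucida averaged 11426 and 5380 FPKM. The growth factor genes GDF9 and BMP15, which define the oocyte, were at 122 to 225 and 58.5 to 99.8 FPKM. The summed oocyte markers were lowest in BCB-positive oocyte 3, at 15928 FPKM against 20460 to 32321 FPKM in the others. The FPKM of all genes also summed to less there, at 668430 against 784781 to 811744. ZP3 was lowest there at 5602 FPKM, as were FIGLA at 53.8 FPKM (178 to 253 FPKM elsewhere) and OOEP at 663 FPKM (1755 to 3850 FPKM elsewhere). ZP4, ZAR1 and MOS were lowest there too. GDF9, ZP2 and DPPA3 were highest there, at 225, 2255 and 793 FPKM. Of 15 markers of cumulus and granulosa cells, 10 were matched in the files. Their summed level was 20.7 to 31.6 FPKM in the BCB-negative and 28.5 to 38.3 FPKM in the BCB-positive class, most of it INHBA (mean 25.85 FPKM), followed by HSD17B1 at 1.22 FPKM. The defining cumulus and granulosa markers CYP19A1 and AMH were at most 0.18 and 0.76 FPKM. FSHR and FOXL2, the other defining markers, were not matched. Summed markers of theca and stroma (4 of 6 matched, led by DCN and COL3A1 at 1.07 and 0.08 FPKM) reached 1.83 FPKM in the BCB-negative and 3.33 FPKM in the BCB-positive class. Those of immune and blood cells (3 of 7 matched, led by CSF1R and CD14 at 0.92 and 0.54 FPKM) reached 3.08 and 2.00 FPKM. Endothelial markers (3 of 5 matched) summed to 6.94 to 15.6 FPKM in the BCB-negative and 8.77 to 23.0 FPKM in the BCB-positive class, nearly all from TEK (mean 10.9 FPKM) and PECAM1 (1.84 FPKM). Of the defining markers of these other cell types, COL1A1 (stroma) and PTPRC (leukocytes) were at 0 in all oocytes but BCB-positive oocyte 3, where they were at 0.03 and 0.56 FPKM. The defining endothelial marker PECAM1 was at 0.04 to 3.76 FPKM. CYP17A1, VWF and HBB were not matched.

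LDHA and DLAT were the members with every BCB-positive oocyte above every BCB-negative oocyte and a class difference of at least 1.5-fold on the log2(FPKM + 1) scale. No member met the same rule in the lower direction. Among all 11493 genes, 5.75% met it as higher and 2.66% as lower, that is 661 and 306 genes. Size factor scaling gave counts of 522 and 425 instead, and rescaling each library to the same FPKM sum gave 818 and 225. Since the contrast was known when the members were chosen, nothing is read from their count of 2 of 8. The median difference of the 8 members was 0.18 on the log2 scale, with 4 of the 8 above 0, and that of all genes compared was 0.11. Ordering alone, at any size, was met by 7.44% of all genes as higher and 4.03% as lower, and PDHA1 was the remaining ordered member, lower in BCB-positive oocytes by less than 1.5-fold. LDHB, PDHB, MPC1, MPC2 and SLC16A1 overlapped between classes.

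**Figure D1:**
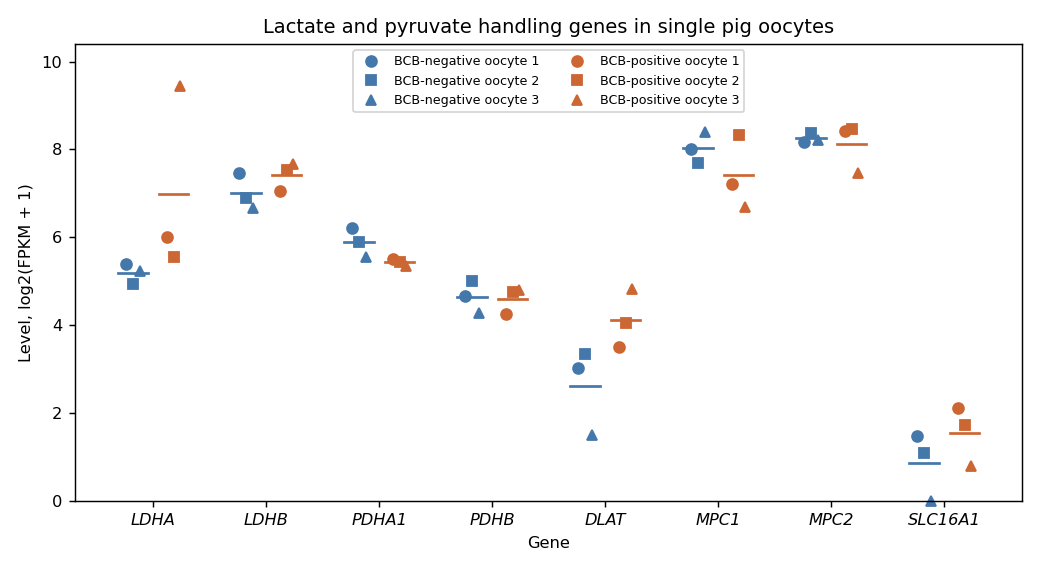
Level of each of the 8 genes as log2(FPKM + 1) in the 3 BCB-negative (blue) and 3 BCB-positive (orange) oocytes, with symbols for oocyte number and a bar at each class mean. LDHA in BCB-positive oocyte 3 stands far above its other 5 values, DLAT and PDHA1 separate by class without overlap, and SLC16A1 is near the bottom of the scale throughout.

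By mean level per transcript length, the members ran in the order MPC2 (297 FPKM), MPC1 (229 FPKM), LDHB (153 FPKM), LDHA (151 FPKM), PDHA1 (50.5 FPKM), PDHB (24.2 FPKM), DLAT (11.9 FPKM) and SLC16A1 (1.54 FPKM). The place of LDHA rested on a single oocyte. Its median over the other 5 oocytes was 40.65 FPKM, below the PDHA1 median of 45.9 FPKM in the same oocytes and far below the LDHB median of 132 FPKM. PDHA1 and PDHB were the neighbours in that order whose ranges over the 6 oocytes did not overlap. The ranges of all other neighbours overlapped across oocytes, which does not settle their order within an oocyte. Within single oocytes, LDHB was below MPC1, LDHA below LDHB and DLAT below PDHB in all but BCB-positive oocyte 3. MPC1 was below MPC2 in all but BCB-negative oocyte 3, and LDHA was above PDHA1 in BCB-positive oocytes only. SLC16A1 was the lowest of the 8 members in all 6 oocytes. Within an oocyte, MPC2 stood above 93.6% to 96.9% of the genes compared, and SLC16A1 above 0 to 29.4% of them.

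LDHA, whose product is often linked to lactate output from pyruvate, was the most variable member by pooled SD, through BCB-positive oocyte 3. In BCB-negative oocytes 1, 2 and 3 it stood at 40.65, 29.8 and 36.6 FPKM, and in BCB-positive oocytes 1, 2 and 3 at 62.8, 45.7 and 692 FPKM. The classes did not overlap, but BCB-positive oocyte 2 was only slightly above BCB-negative oocyte 1, and BCB-positive oocyte 3 was 17.0 times the median of the other 5. The class difference was 1.81 (pooled SD between oocytes 1.51) on the log2 scale, a 3.50-fold difference. Without BCB-positive oocyte 3 it was 0.58, just under the 1.5-fold limit, and it was 1.69 to 2.53 with each of the other oocytes left out. Expected counts for LDHA summed to 1481 in BCB-negative oocytes (95% exact Poisson interval 1407 to 1558) and 12547 in BCB-positive oocytes (12328 to 12769), intervals that cover counting error only. Of the BCB-positive counts, 10943 came from oocyte 3. LDHA was there the 124th most abundant gene, while its rank in the other oocytes was between 1681 and 2854.

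**Figure D2:**
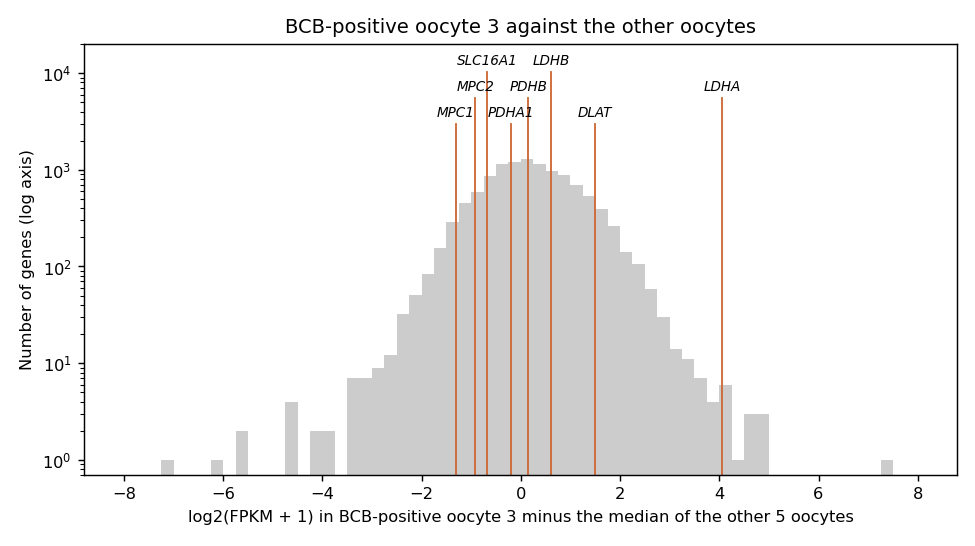
Number of genes (log axis) by log2(FPKM + 1) in BCB-positive oocyte 3 minus the median of the other 5 oocytes, over 11493 genes. Vertical lines mark the 8 members, with LDHA at 4.06 in the far right tail, DLAT at 1.49 and MPC1 lowest at -1.32.

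The excess of LDHA in BCB-positive oocyte 3 over the median of the other 5 was 4.06 on the log2 scale, the 14th largest among the 11493 genes compared. The median gene had an excess of 0.16 in that library. The remaining members did not share it. DLAT was next at 1.49 and LDHB at 0.60, PDHB was at 0.15 and PDHA1 at -0.20, while SLC16A1, MPC2 and MPC1 were at -0.68, -0.92 and -1.32. The excess of LDHA was 3.88 after size factor scaling and 3.99 with counts per library total, so it hardly moved with the scaling. The cumulus and granulosa markers summed to 28.5 FPKM in that oocyte, the lowest of the BCB-positive values, with CYP19A1 at 0.04 FPKM and AMH at 0. Endothelial markers were highest there, at 23.0 FPKM, through TEK at 20.4 FPKM, and the summed oocyte markers were lowest, at 15928 FPKM. Their part in the LDHA value was not tested. The LDHA values of BCB-positive oocytes 1 and 2 were unremarkable among genes, at percentiles 85.2 and 58.5 of the same measure for their own libraries.

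LDHA was listed as transcripts of 1710 and 1945 nt, and the share of each varied between oocytes. The shorter transcript held 25.3%, 0% and 2.40% of LDHA FPKM in the BCB-negative class, against 19.8%, 0.42% and 77.0% in BCB-positive oocytes. In 5 of the 6 oocytes the longer transcript therefore made up most of LDHA, and in BCB-positive oocyte 3 the shorter one did. By level, the shorter transcript was at 532.9 FPKM in that oocyte and at most 12.4 FPKM in the rest. The longer transcript was also highest there, at 159 FPKM against 29.8 to 50.4 FPKM. The 1945 nt transcript alone was ordered by class, differing by 1.14 (SD 0.71), or by 0.57 without BCB-positive oocyte 3. The 1710 nt transcript overlapped between classes, with a class difference of 2.88 (SD 3.39) that was 0.53 without that oocyte. The shares are estimates by the authors' software, which divides reads between transcripts that share most of their bases. Expected counts of the gene as a whole were whole numbers in all 6 oocytes (to within 0.005), so reads of LDHA were not divided with another gene.

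LDHB, the subunit that predominates in the oocytes of mice, was the steadier of the pair only through the LDHA value of BCB-positive oocyte 3. Over the other 5 oocytes the SDs of log2(FPKM + 1) were alike, at 0.39 for LDHA and 0.37 for LDHB. In BCB-negative oocytes LDHA varied less, with an SD of 0.22 against 0.41. The summed level of LDHB was 177, 119 and 101 FPKM in the BCB-negative class, against 132, 185 and 202 FPKM in the BCB-positive class. The classes overlapped, BCB-negative oocyte 1 lying above BCB-positive oocyte 1, and the difference was 0.40 (SD 0.37). Leaving out BCB-negative oocyte 1 removed the overlap, at 0.63. The symbol covered gene 100621540, with a transcript of 1301 nt, and gene 102161427, with one of 1047 nt. Neither had a whole expected count in any oocyte, while their sum was whole in all 6. Reads were thus divided between these 2 genes and with no other, and the level of each alone is uncertain. Gene 102161427 held 51.4%, 45.3% and 38.0% of LDHB FPKM in the BCB-negative class, against 47.1%, 50.9% and 37.7% in BCB-positive oocytes, so the split was like in both classes. Taken alone, the genes differed between classes by 0.39 and 0.41.

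LDHB was the larger part of the pair in all oocytes but 1. LDHB made up 81.3%, 79.9% and 73.3% of the summed LDHA and LDHB FPKM in BCB-negative oocytes. In BCB-positive oocytes the share was 67.8%, 80.2% and 22.6%. BCB-positive oocytes 1 and 3 lay below all BCB-negative oocytes, and BCB-positive oocyte 2 lay within their range. The class means were 78.2% ± 4.27 and 56.9% ± 30.3 (SD, n = 3 oocytes each), a gap of -21.3 percentage points that was -4.19 without BCB-positive oocyte 3. A share within a library does not depend on how libraries are scaled against each other. The summed LDHA and LDHB level was 137 to 217 FPKM in BCB-negative oocytes, 195 and 230 FPKM in BCB-positive oocytes 1 and 2, and 894 FPKM in BCB-positive oocyte 3.

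**Figure D3:**
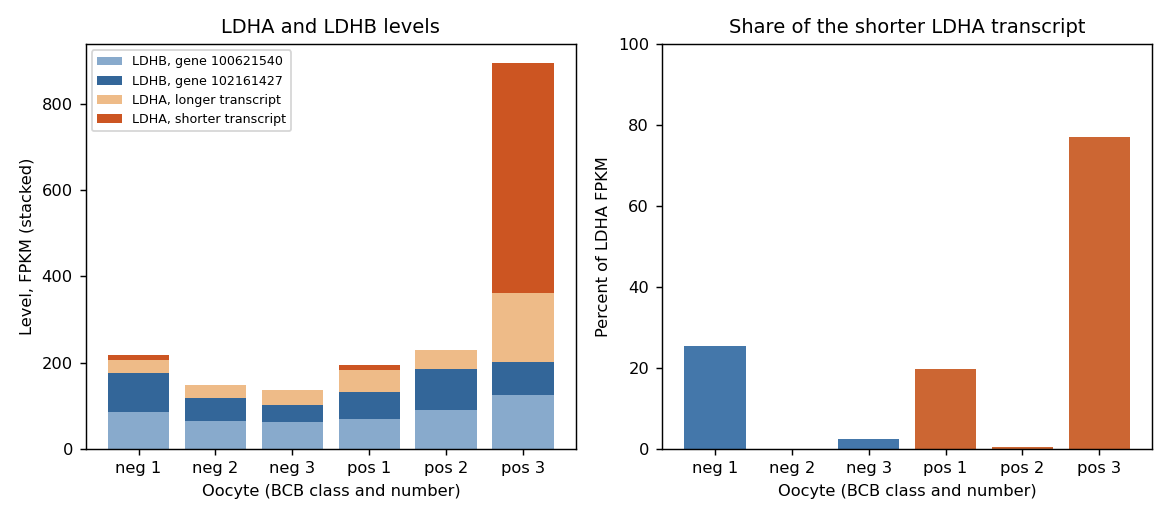
Left, FPKM of LDHA (orange, by transcript) and LDHB (blue, by gene ID) stacked for each oocyte. Right, percent of LDHA FPKM in the 1710 nt transcript. BCB-positive oocyte 3 reaches 894 FPKM, most of it the shorter LDHA transcript, which holds 77.0% of LDHA there and at most 25.3% in any other oocyte.

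A further subunit gene, LDHC, best known from testis and lying next to LDHA in the reference annotation, was more abundant than either in 4 of the 6 oocytes. Its locus overlaps an unnamed gene in that annotation, and its expected counts were whole numbers in all 6 oocytes. LDHC was at 232, 172 and 144 FPKM in the BCB-negative class, against 169, 180 and 285 FPKM in the BCB-positive class. It overlapped between classes, with a difference of 0.20 (SD 0.38) that was -0.04 without BCB-positive oocyte 3. Of the FPKM of LDHA, LDHB and LDHC together, LDHC held 51.6%, 53.6% and 51.2% in BCB-negative oocytes and 46.4%, 43.9% and 24.2% in BCB-positive oocytes. These LDHC shares did not overlap between classes, a comparison chosen after the values were seen. LDHA, higher in every BCB-positive oocyte and chosen with that known, is part of the sum, so the shares partly restate its values. How often such shares fail to overlap among other genes was not counted.

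DLAT, the core acetyltransferase of pyruvate dehydrogenase, was the other member higher in BCB-positive oocytes. It stood at 7.11, 9.12 and 1.81 FPKM in the BCB-negative class, against 10.24, 15.5 and 27.4 FPKM in the BCB-positive class. The classes were narrowly ordered, with BCB-positive oocyte 1 just above BCB-negative oocyte 2. The difference was 1.503 (SD 0.84), or 2.83-fold, on summed expected counts of 339 for BCB-negative and 1142 for BCB-positive oocytes (95% exact Poisson intervals 304 to 377 and 1077 to 1210). Both BCB-negative oocyte 3 and BCB-positive oocyte 3 contributed, since the difference was 0.94 without the former and 1.15 without the latter. In BCB-negative oocyte 3, DLAT was 2.00 below the median of the other oocytes on the log2 scale, at percentile 1.61 of all genes for that library. Leaving an oocyte out cannot undo the ordering of DLAT or LDHA, so only the 1.5-fold limit could fail. DLAT stayed above that limit whichever single oocyte was left out. LDHA stayed above it without any 1 of 5 but not without BCB-positive oocyte 3.

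PDHA1, the X-linked catalytic subunit that is switched off by phosphorylation, went the other way. Its level was 73.0, 58.2 and 45.9 FPKM in the BCB-negative class, against 44.1, 42.2 and 39.8 FPKM in the BCB-positive class. All BCB-positive values lay below all BCB-negative values, though BCB-negative oocyte 3 and BCB-positive oocyte 1 were close. The difference was -0.46 (SD 0.24), or 0.73-fold, and ranged from -0.62 to -0.29 when single oocytes were left out, passing the 1.5-fold limit without BCB-negative oocyte 3. BCB-positive oocyte 3, which stood apart for LDHA, lay near the median of the others for PDHA1, at an excess of -0.20. PDHA1 overlaps MAP3K15 in the reference annotation, which was at 11.6 to 19.3 FPKM, and the files do not say whether strand was used in counting. Expected counts of PDHA1 were whole numbers in all 6 oocytes, so its reads were not divided with another gene. Of its listed transcripts, the 3877 nt form held all of PDHA1 in BCB-negative oocyte 1 and the 3 BCB-positive oocytes, and 74.7% and 95.6% in BCB-negative oocytes 2 and 3.

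PDHB, the partner subunit of PDHA1 in E1, did not separate the classes. It was at 24.2, 31.3 and 18.4 FPKM in the BCB-negative class, against 17.95, 26.0 and 27.0 FPKM in the BCB-positive class, a difference of -0.05 (SD 0.34) whose sign changed with the scaling. PDHB served as a base for the other subunits of the complex. PDHA1 was 3.02, 1.86 and 2.49 times PDHB in BCB-negative oocytes and 2.45, 1.62 and 1.47 times in BCB-positive oocytes. DLAT was 0.29, 0.29 and 0.10 times PDHB in BCB-negative oocytes and 0.57, 0.595 and 1.01 times in BCB-positive oocytes. The DLAT to PDHB ratio did not overlap between classes, while the PDHA1 to PDHB ratio did. As DLAT itself was ordered by class and PDHB hardly differed, the DLAT ratio largely restates the DLAT values and is no separate observation. As the least abundant subunit of the 3 in 5 oocytes, DLAT reached the level of PDHB only in BCB-positive oocyte 3.

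MPC1 and MPC2, the obligate partners of the pyruvate carrier, were the most abundant members and overlapped between classes. MPC1 was at 257, 207 and 337 FPKM in the BCB-negative class, against 148, 322 and 103 FPKM in the BCB-positive class. BCB-positive oocytes 1 and 3 were the lowest of the 6 and BCB-positive oocyte 2 was among the highest, so the difference of -0.62 (SD 0.64) described no common shift. It was -0.26 without BCB-positive oocyte 3 and -1.08, now ordered, without BCB-positive oocyte 2. MPC2 was at 286, 332 and 294 FPKM in the BCB-negative class, against 341, 353 and 175 FPKM in the BCB-positive class, which differed by -0.13 (SD 0.41), or by 0.19 without BCB-positive oocyte 3. That oocyte thus had the lowest value of both carrier genes. The MPC1 to MPC2 ratio was 0.90, 0.62 and 1.15 in BCB-negative oocytes and 0.43, 0.91 and 0.59 in BCB-positive oocytes, and overlapped. For MPC2, a 746 nt transcript held 97.3% to 99.2% of FPKM in each oocyte. For MPC1, a 956 nt transcript held 79.3% to 92.3%, except in BCB-negative oocyte 3, where it held 55.7% and a 909 nt transcript 44.3%.

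SLC16A1, the transporter, was close to the limit of detection. It was at 1.76, 1.14 and 0 FPKM in the BCB-negative class, against 3.32, 2.30 and 0.72 FPKM in the BCB-positive class. The classes overlapped, with BCB-positive oocyte 3 below BCB-negative oocytes 1 and 2. The difference was 0.68 (SD 0.72) and rested on 33 expected counts in BCB-negative oocytes (95% exact Poisson interval 22.7 to 46.3) and 77 in BCB-positive oocytes (60.8 to 96.2). The 0 in BCB-negative oocyte 3 allows up to 3 counts, or 0.28 FPKM at the depth of that library. The difference was 0.26 without BCB-negative oocyte 3. It was 1.06 without BCB-positive oocyte 3, where SLC16A1 met the ordered and 1.5-fold rule. LRIG2, which overlaps SLC16A1 in the reference annotation, was at 0.47 to 2.09 FPKM, a level like that of SLC16A1. Expected counts of SLC16A1 were whole numbers in all 6 oocytes, so its reads were not divided with another gene. With so few counts and that overlap, the low values are still uncertain.

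**Figure D4:**
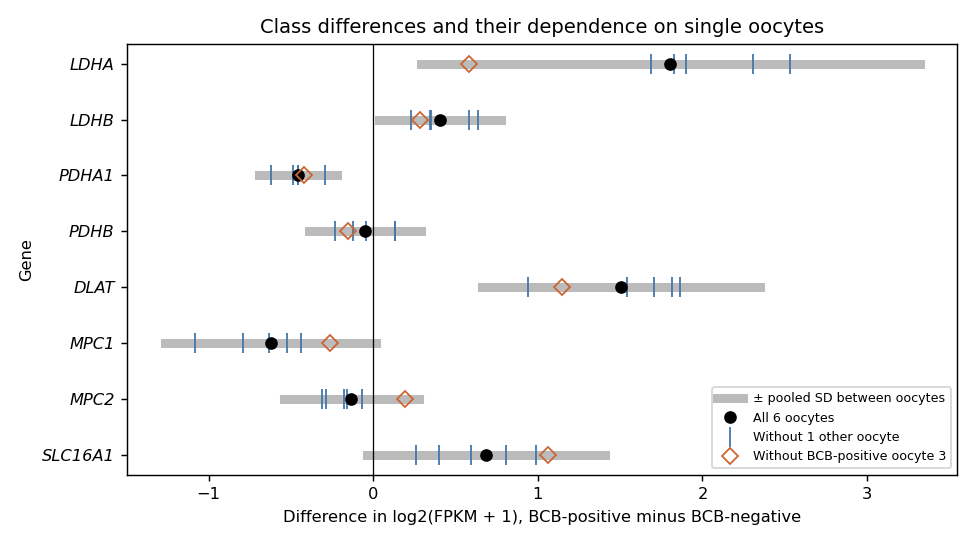
Difference in mean log2(FPKM + 1), BCB-positive minus BCB-negative, for each member with all 6 oocytes (black), ± the pooled SD within classes (grey bar), without BCB-positive oocyte 3 (orange diamond) and without each other oocyte (blue ticks). LDHA drops from 1.81 to 0.58 without BCB-positive oocyte 3, DLAT stays at 0.94 or more, and PDHA1 stays between -0.62 and -0.29.

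Around the members, 65 genes of lactate, pyruvate and acetyl-CoA metabolism were listed in 9 groups, of which 59 were matched and 51 averaged at least 1 FPKM. With the members included, 2 were ordered and at least 1.5-fold higher in BCB-positive oocytes, LDHA and DLAT, and 1 was lower. Of the 43 that are no members, 0 were higher and 1 was lower, beside 5.75% and 2.66% of all genes compared, shares at which lists this short hold few or no such genes. The lower gene was MPC1L, a relative of MPC1, at 18.4, 9.87 and 16.2 FPKM in the BCB-negative class, against 6.26, 9.29 and 6.59 FPKM in the BCB-positive class (difference -0.89, SD 0.37). MPC1L overlaps CXHXorf38 in the reference annotation, which was at 4.34 to 16.4 FPKM, so its level is uncertain, though its expected counts were whole numbers in all 6 oocytes. The median difference of the 51 genes was 0.26, and 0.0040 without BCB-positive oocyte 3. Leaving out BCB-negative oocyte 3 instead gave 0.076. The tilt towards higher BCB-positive means in this network thus leaned on both of those oocytes. With all 6 oocytes the median of all genes compared lay in the same direction but was smaller, at 0.11. It was 0.050 without BCB-positive oocyte 3. Whether the network differs from other genes in this was not tested. With size factors the medians were 0.16 for the 51 genes and 0.023 for all genes.

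Other transporters of lactate were low as well. Among 4 compared genes of monocarboxylate transporters and their partners, 0 met the rule. SLC16A8 was at 3.08, 3.21 and 2.60 FPKM in the BCB-negative class, against 1.68, 1.69 and 2.38 FPKM in the BCB-positive class, ordered but within 1.5-fold (-0.45). BSG (basigin), the chaperone that brings MCT1 to the membrane, averaged 2.37 FPKM and was at 0.13 FPKM in BCB-positive oocyte 3 against 1.90 to 4.87 FPKM in the rest. Of the pyruvate dehydrogenase complex, 5 genes were compared, with DLAT higher and 0 lower. PDHX, which binds the E3 subunit to the core, averaged 24.3 FPKM, about the level of PDHB, with a difference of 0.32 (SD 0.53). Of 5 kinases and phosphatases that set the activity of the complex, 0 met the rule, and the kinases PDK2 and PDK3 averaged 11.4 and 6.11 FPKM with differences of 0.03 and 0.33. None of the 3 lipoate genes met it, which supply the cofactor of DLAT. NFU1 differed by -0.36 (SD 0.39), and LIAS by 0.64 (SD 1.10), with 90.7 FPKM in BCB-positive oocyte 3 against 12.3 to 29.8 FPKM elsewhere.

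Beyond the members, the steps that make pyruvate or use its products overlapped between classes in every gene compared, while 7.44% and 4.03% of all genes were ordered as higher and lower. Of 6 other pyruvate enzymes, 0 met the rule. The mitochondrial malic enzyme ME2 was the most abundant, at 75.1, 87.9 and 102 FPKM in the BCB-negative class, against 83.1, 93.1 and 245 FPKM in the BCB-positive class, and again highest in BCB-positive oocyte 3. The cytosolic malic enzyme ME1 differed by 0.20 (SD 0.61). Of 7 genes of the shuttles that reoxidise cytosolic NADH, the alternative to lactate dehydrogenase for that purpose, 0 met the rule. Their most abundant members, the aspartate-glutamate carrier SLC25A13 and the aminotransferase GOT2, differed by 0.33 each, and by 0.13 and -0.14 without BCB-positive oocyte 3. Of 15 citric acid cycle genes, 0 met the rule and the median difference was 0.00. SDHB of succinate dehydrogenase, at 380 to 673 FPKM, and SUCLG1 of succinyl-CoA ligase, at 79.0 to 179 FPKM, differed by -0.17 and 0.26.

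**Figure D5:**
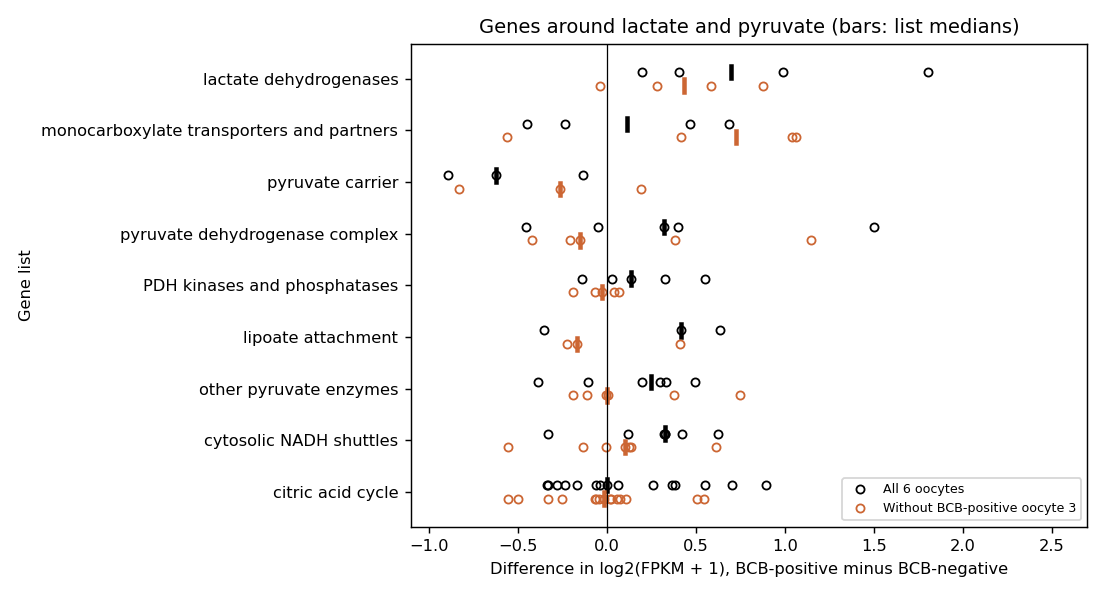
Difference in mean log2(FPKM + 1), BCB-positive minus BCB-negative, for each compared gene of the 9 groups, with all 6 oocytes (black) and without BCB-positive oocyte 3 (orange); bars mark group medians. The medians of most groups lie nearer to 0 without that oocyte, and monocarboxylate transporters move away from it, from 0.12 to 0.73.

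The genes with the pattern most like that of LDHA were sought by Pearson correlation of log2(FPKM + 1) across oocytes, over 8112 genes with a symbol. Across all 6 oocytes IDE, METTL18, MAGI3, SLC31A2 and GPR158 ranked first, with r between 0.992 and 0.998, and 144 genes exceeded 0.95. Each of the 5 was highest in BCB-positive oocyte 3, such as SLC31A2, a copper transporter relative, at 169 FPKM there and 19.8 to 30.6 FPKM in the rest. Without that oocyte a different 5 ranked first, CD79A, CLCN2, HEATR1, SPRED1 and VEZT, with r between 0.990 and 0.999 over 5 oocytes. There 53 genes exceeded 0.95, and CD79A, the first of them, was near the floor at 0 to 3.75 FPKM. With so few oocytes, these values of r are a description only.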

How the data were processed

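Per the labels' protocols, polyadenylated RNA of each single oocyte was primed with a poly(dT) tail of 24 nt, amplified by PCR and sequenced in a shared lane. No molecular identifiers were named, so counting intervals cover counting error only. BWA, RSEM, Cufflinks and the build Sscrofa10.2 stand in the submitters' processing notes, without roles or versions. The authors deposited expected counts (estimates that divide shared reads) and FPKM per gene and transcript, rounded to 2 decimals, per the file headers. Genes not listed in an oocyte were set to 0.

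Symbols came from a table of Sscrofa11.1, by gene ID for 13936 genes and by transcript accession for 3. The table also served to find overlapping and neighbouring genes, and none of its coordinates are reported. Differences are BCB-positive minus BCB-negative means of log2(FPKM + 1), with the pooled SD between oocytes, for genes averaging at least 1 FPKM. A gene was called where classes did not overlap and differed by at least 1.5-fold. Isoform shares needed 1 FPKM. Python 3.11.15, numpy 2.4.6, pandas 2.3.3 and scipy 1.17.1 were used.

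The members and gene lists were chosen with earlier results of these data known. Named were all members, the called and the 2 most abundant genes of each list, the 2 most abundant markers of each cell type and the 5 genes most like LDHA over all oocytes, and likewise leaving out BCB-positive oocyte 3. Further genes were named where a member overlaps them or, for GDF9, BMP15, CYP19A1, AMH, FSHR, FOXL2, CYP17A1, COL1A1, PECAM1, VWF, PTPRC and HBB, as defining markers. FIGLA, OOEP, DPPA3, ZP2, ZAR1 and MOS were named after their values were seen. Alternatives were other pseudocounts, scalings and filters, the ratio of class means, counts in place of FPKM and leaving out each oocyte. The use of each LDHB gene alone was added after seeing the data.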

Additional observations from a re-analysis of the deposited data

How the results depend on the processing

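No paired analysis was possible because no animal or culture was named that ties a BCB-negative oocyte to a BCB-positive one. Each class was treated as 1 sample of 3 cells, and no test was made. Of 48 member differences with an oocyte left out, 3 changed sign (PDHB in 2 cases, MPC2 in 1). All 48 stayed within 1 pooled SD between oocytes of the reported value, which says nothing about stability. With 3 oocytes a class, leaving 1 out cannot move a difference that far. Of 50 under other settings, 49 stayed within 1 SD, and SLC16A1 differed by 1.62 with a pseudocount of 0.1 FPKM. With single oocytes left out, LDHA ranged from 0.58 to 2.53 and DLAT from 0.94 to 1.86. Members called higher numbered 2 to 3, the third being LDHB without BCB-negative oocyte 1. Members called lower numbered 0 to 1, PDHA1 without BCB-negative oocyte 3 and MPC1 without BCB-positive oocyte 2. The rule is easier to meet with an oocyte left out, so nothing is read from these added calls.

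Among the 51 pathway genes, 2 to 6 were higher and 1 to 2 lower with an oocyte left out, the highest counts being 6 without BCB-negative oocyte 1 and 5 without BCB-positive oocyte 1. Over all 11493 genes, such calls were counted only without BCB-positive oocyte 3, at 826 higher and 506 lower, against 661 and 306 with all 6 oocytes. In that setting 3 pathway genes were higher and 1 lower. The other left-out counts have no such share beside them, and nothing is read from them. With a pseudocount of 0.1 FPKM 2 were lower. The median of the 51 ranged from 0.0040 to 0.28 with an oocyte left out. Under other settings the pathway median ranged from 0.14 to 0.35, highest with a common FPKM sum. The low end was the median of all matched genes, taken with no filter, and other filters likewise changed which genes were covered. Left-out oocytes moved the list medians of pyruvate dehydrogenase (-0.15 to 0.50), monocarboxylate transporters (-0.14 to 0.73), lipoate attachment (-0.17 to 0.59), other pyruvate enzymes (-0.0013 to 0.37) and the citric acid cycle (-0.086 to 0.16). With a filter of 5 FPKM the medians of pyruvate dehydrogenase and other pyruvate enzymes were 0.14 and 0.045. With size factors the excess of MPC2 in BCB-positive oocyte 3 was -1.11. From counts in place of FPKM, which drops the scaling to length, the class gaps in the PDHA1 to PDHB and DLAT to PDHB ratios were -1.55 and 0.83, against -0.60 and 0.50. Few oocytes and few counts, 33 and 77 for SLC16A1, limit what these data can show.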
